A study of Mus musculus with 8 samples.

Results

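The immediate early genes Fos, Fosb, Jun, Junb, Jund, Egr1, Atf3, Ier2, Klf2 and Nr4a2 were followed by name through arrays of sorted brain myeloid cells. All 10 genes were on the array, read by 12 probes of 60273, whose 47242 names include genes, other transcripts and unnamed identifiers. Junb and Ier2 each had 2 probes and the other genes 1 probe each. Each gene was taken to stand for the probe with the highest mean over the 8 arrays.

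The arrays compared donor-derived cells sorted from mouse brains after an induced stroke. In 4 samples (replicates 5 to 8) the cells came from DsRed-marked Psgl1-/- bone marrow, and in the other 4 (replicates 1 to 4) from DsRed-marked Psgl1+/+ bone marrow, in wild-type hosts in both groups. Psgl1, whose gene symbol is Selplg, encodes PSGL-1, the glycoprotein through which leukocytes bind selectins. All hosts underwent a middle cerebral artery occlusion (MCAo) of 30 min, and the ischemic tissue was taken at 7 days. The tissue was dissociated with a kit, cleared of myelin and enriched with CD11b beads, and propidium iodide-negative, DsRed-positive, CD11b-positive, CD45-high cells without Ly6G and CD3 were then sorted. Host cells, resident microglia included, lie outside this gate unless they carry DsRed. The sources used here give neither the promoter that drives DsRed, nor the ages, nor how many animals made a sample. The p-values therefore cover the variation among these 8 samples and no more, and some of it may be technical.

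Immediate early genes are transcribed within minutes of a stimulus, without new protein synthesis, when kinases of the MAPK pathways and calcium signals switch on factors already bound at their promoters, among them SRF and CREB. FOS and ATF3 proteins pair with JUN proteins to form AP-1, which binds DNA as a dimer, while EGR1 and KLF2 are zinc finger factors and NR4A2 is an orphan nuclear receptor. In brain myeloid cells these transcripts are also known to be induced by enzymatic dissociation and sorting at warm temperature, so that their level can reflect both the tissue and its handling. Both groups were handled by the same stated protocol, and no sample prepared with a transcription blocker or without dissociation was analysed here.

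The promoters of the genes that differed most in how they behaved on these arrays are shown first. Fos, Fosb and Jun had the largest positive differences, Nr4a2 the largest negative one, and Klf2 was the 1 gene whose groups did not overlap after scaling. The 250 bases before the transcription start are from RefSeq on build GRCm38.p6, 5′ to 3′. Capitals mark TGACG (the core of the cAMP response element), TGACATCA (an AP-1-like site), GCGNGGGCG (the EGR site) and TATAAA, each searched on both strands.
Fos, chr12:85473640-85473889, plus strand: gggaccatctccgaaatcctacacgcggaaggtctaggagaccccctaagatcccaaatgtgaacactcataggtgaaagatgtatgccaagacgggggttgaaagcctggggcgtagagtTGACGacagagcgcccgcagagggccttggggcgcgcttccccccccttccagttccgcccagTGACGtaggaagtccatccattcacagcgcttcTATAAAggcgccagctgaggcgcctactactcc
Fosb, chr7:19310046-19310295, minus strand: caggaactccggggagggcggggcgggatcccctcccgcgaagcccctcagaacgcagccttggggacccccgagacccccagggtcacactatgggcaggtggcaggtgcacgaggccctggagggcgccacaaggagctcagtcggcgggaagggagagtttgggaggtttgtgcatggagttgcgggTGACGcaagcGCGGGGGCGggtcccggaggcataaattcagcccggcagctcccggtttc
Jun, chr4:95052223-95052472, minus strand: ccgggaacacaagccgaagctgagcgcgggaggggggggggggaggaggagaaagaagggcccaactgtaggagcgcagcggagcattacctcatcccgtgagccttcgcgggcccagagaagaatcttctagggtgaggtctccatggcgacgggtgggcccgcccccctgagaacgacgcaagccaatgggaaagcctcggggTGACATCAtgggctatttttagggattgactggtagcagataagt
Nr4a2, chr2:57124004-57124253, minus strand: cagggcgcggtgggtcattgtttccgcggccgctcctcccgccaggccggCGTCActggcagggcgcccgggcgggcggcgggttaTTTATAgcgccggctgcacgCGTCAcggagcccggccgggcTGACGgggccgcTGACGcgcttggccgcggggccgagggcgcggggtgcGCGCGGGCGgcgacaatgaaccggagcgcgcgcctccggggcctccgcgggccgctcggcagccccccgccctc
Klf2, chr8:72318812-72319061, plus strand: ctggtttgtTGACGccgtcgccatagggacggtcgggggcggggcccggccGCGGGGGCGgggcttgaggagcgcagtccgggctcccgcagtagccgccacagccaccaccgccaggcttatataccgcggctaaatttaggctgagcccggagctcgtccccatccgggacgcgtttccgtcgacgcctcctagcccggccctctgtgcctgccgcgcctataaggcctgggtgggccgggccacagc

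Promoters were held for 8 of the 10 genes (Egr1 and Ier2 had none in the table). TGACG lay in 6 of the 8 promoters and in 17.8% of all 32851 promoters of this length. In Fos it lay 129 and 66 bases before the start, followed by TATAAA at 33, in Fosb 60 bases before the start, and in Nr4a2 it occurred 4 times. The EGR site was in Fosb, Nr4a2 and Klf2, 3 of 8 promoters, against 4.70% of all. TGACATCA was in Jun alone, 45 bases before the start, and in 2.93% of all promoters. The full element TGACGTCA (1.55% of all, and itself a match to TGACG), the AP-1 site TGANTCA (6.75%) and the CArG box that SRF binds (1.47%) were found in 0 of the 8 windows. Sequence outside these windows was not searched, and Egr1 and Ier2 had no window. The absence of these sites therefore holds for the windows alone and does not show that the genes lack them. A match describes letters and not an occupied site.

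On the scanner files, 76.1% to 88.2% of gene spots were well above background, 86.2% to 88.2% on the 4 arrays of slide row 1 (replicates 2, 4, 6 and 8) and 76.1% to 81.6% on those of row 2. Each row held 2 arrays of each group, whereas slide columns 1 and 2 held Psgl1+/+ arrays and 3 and 4 Psgl1-/- arrays, so column and group cannot be told apart. The correlation of log2 signal over tested genes was 0.75 to 0.79 for pairs within a group and 0.72 to 0.79 for pairs across groups. The Selplg probe read 13.24, 13.45, 13.19 and 12.88 on the Psgl1-/- arrays, against 13.77, 12.66, 13.06 and 15.74 on the Psgl1+/+ arrays (log2 signal after scaling, difference -0.62, limma adjusted p = 0.698). The sources used here do not state the deleted stretch of the gene, so this probe does not check the labels, and group names below are those of the labels. The myeloid marker Itgam (CD11b), an integrin subunit, was well above background on all 8 arrays at 12.23 to 14.37 on the Psgl1-/- and 13.11 to 14.17 on the Psgl1+/+ arrays. Markers that the gate should remove were also detected, so detection on this array does not by itself show their cells. Ly6g, of neutrophils, was well above background on 7 of 8 arrays (6.54 to 10.92 on Psgl1-/-, 2.29 to 8.59 on Psgl1+/+), and the T cell genes Cd3d and Cd3g on all 8. Cd3d read 7.74 to 8.75 on Psgl1-/- and 8.13 to 8.46 on Psgl1+/+, and Cd3g 6.87 to 7.42 on Psgl1-/- and 7.39 to 8.0 on Psgl1+/+. A further CD3 chain, Cd3e, read 12.04 on Psgl1+/+ replicate 3 and 5.49 to 6.48 on the other 7 arrays. On Psgl1+/+ replicate 3 Cd3d read 8.13 and Cd3g 7.59.

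None of the 10 genes passed the test between Psgl1-/- and Psgl1+/+ cells. By limma, 0 of 10 had an adjusted p under 0.05 (adjusted p = 0.478 to 0.938), while 2, Nr4a2 and Klf2, had an unadjusted p under 0.05, both lower in Psgl1-/-. Over all 42432 tested genes, 0.00236% passed (1 gene) and 10.3% had an unadjusted p under 0.05, with 1.65% above and 8.61% below in Psgl1-/-. In 5 genes the Psgl1-/- mean was above the Psgl1+/+ mean and in 5 below it, beside 31.6% of all tested genes with a positive difference. After scaling the groups did not overlap in 1 of the 10 genes and in 11.1% of all. When each probe was fitted on its own, 0 of 11 tested probes of these genes passed (0.0175% of all 51380) and 1, that of Nr4a2, had an unadjusted p under 0.05 (9.78% of all). Klf2 missed that threshold in the probe fit by limma (unadjusted p = 0.0506). The median difference (Psgl1-/- minus Psgl1+/+) over the 10 genes was 0.11 on the log2 scale, beside -0.31 over all tested genes. The shift of -0.31 depended on the scaling and was -0.01 after cyclic loess, -0.11 with normexp followed by quantiles and -0.17 when arrays were scaled to their medians. Since RNA was measured in bulk, fewer cells that express a gene and less RNA per cell cannot be told apart.

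**Figure D1:**
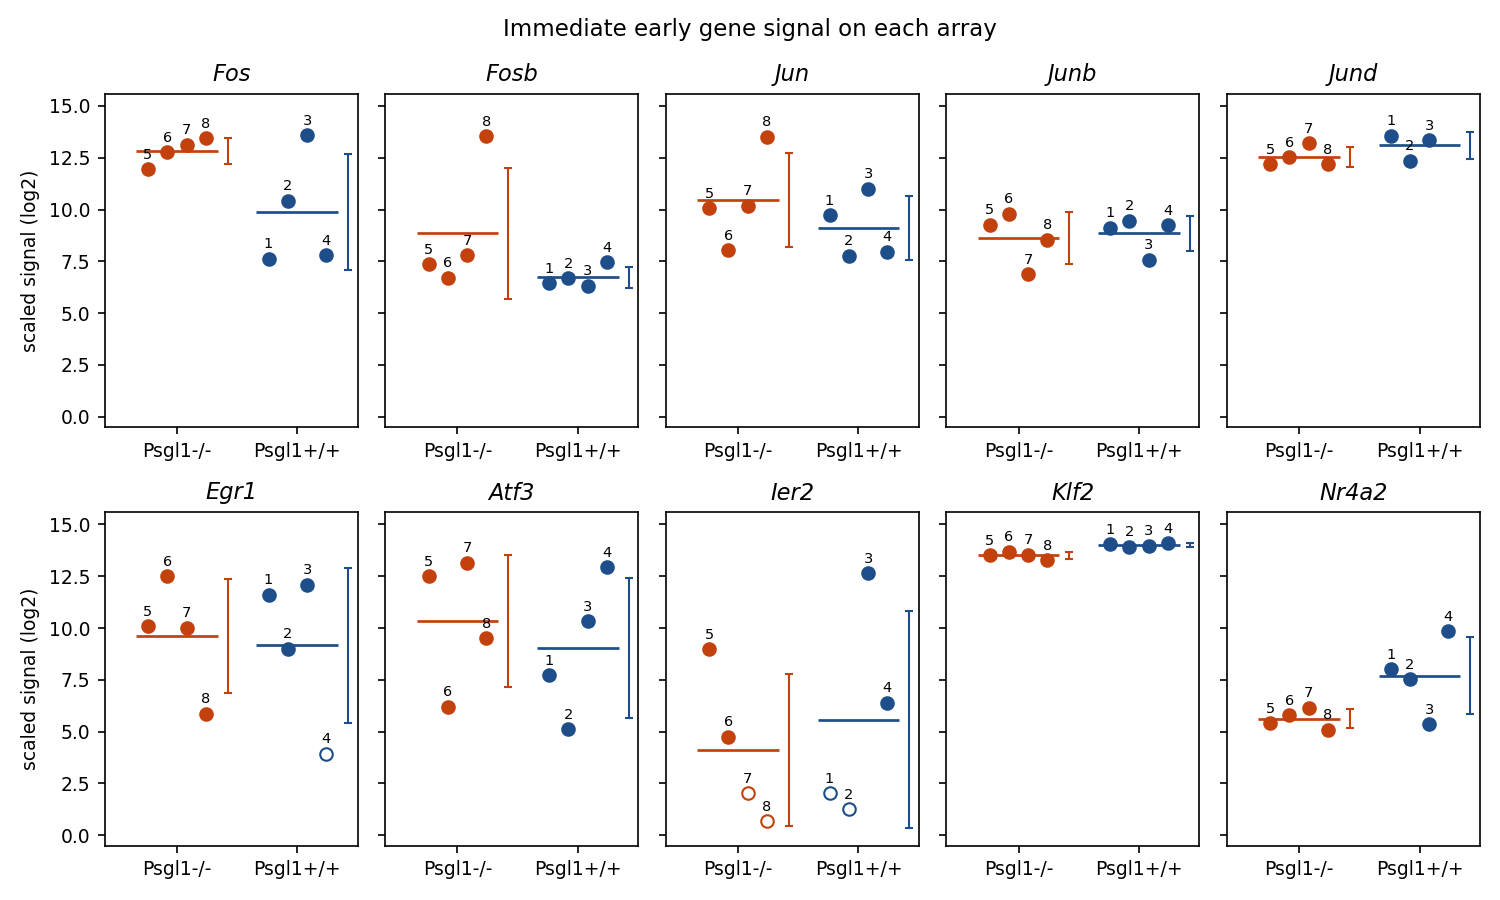
Scaled log2 signal of each gene on each array, with Psgl1-/- replicates 5 to 8 in orange and Psgl1+/+ replicates 1 to 4 in blue. Lines are group means, bars beside them are ± SD (n = 4, but n = 3 for Jund in Psgl1+/+), and open circles were not well above background. Klf2 spans 0.83 log2 units over the 8 arrays and Atf3 8.03.

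Fos, the founding AP-1 subunit and the most widely used marker of recent stimulation, was uniformly high in the Psgl1-/- cells and uneven in the Psgl1+/+ cells. It read 11.96, 12.78, 13.13 and 13.43 (log2 signal) on Psgl1-/- replicates 5 to 8, against 7.62, 10.43, 13.59 and 7.80 on Psgl1+/+ replicates 1 to 4. The groups overlapped through Psgl1+/+ replicate 3, which was the highest of all 8, whereas Psgl1+/+ replicates 1 and 4 lay more than 4 log2 units below every Psgl1-/- array. Those arrays had the most spots marked as outliers, 124 and 149 of 61473 gene spots, against 25 to 44 on the others. The 75th percentile before scaling was lowest on Psgl1+/+ replicate 4 (518.3). Any part of this in the Fos values was not tested. The means were 12.83 ± 0.63 in Psgl1-/- and 9.86 ± 2.80 in Psgl1+/+ (SD, n = 4 each), a difference of 2.96 with a 95% interval of -0.02 to 5.95 (limma adjusted p = 0.478). Over 20 settings of the processing the difference stayed between 2.22 and 4.21, and the adjusted p between 0.417 and 0.873.

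Fosb, a paralog of Fos that forms the same kind of dimers, was low on 7 arrays. It read 7.37, 6.71, 7.80 and 13.55 on Psgl1-/- replicates 5 to 8, against 6.44, 6.70, 6.33 and 7.47 on Psgl1+/+ replicates 1 to 4. Most of the mean difference of 2.12 (95% interval -1.20 to 5.45, adjusted p = 0.550 by limma) came from Psgl1-/- replicate 8, and it was 0.56 without that array. Jun, the main partner of FOS in AP-1, was highest on the same array, at 10.07, 8.04, 10.18 and 13.51 on the Psgl1-/- arrays and 9.72, 7.78, 11.01 and 7.96 on the Psgl1+/+ arrays. Its difference of 1.33 (95% interval -1.52 to 4.18, limma adjusted p = 0.657) was 0.31 without Psgl1-/- replicate 8. On that array Fos, Fosb and Jun read 13.43, 13.55 and 13.51, while Egr1, at 5.86, was the lowest of its group and Ier2 was not well above background.

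The other JUN proteins can replace JUN in AP-1, and JUNB and JUND often oppose its effect on growth. Junb read 9.26, 9.80, 6.88 and 8.54 on Psgl1-/- replicates 5 to 8, against 9.12, 9.47, 7.59 and 9.24 on Psgl1+/+ replicates 1 to 4, and the groups overlapped throughout. The difference was -0.24 with a 95% interval of -1.88 to 1.40. The other Junb probe, annotated to the transcript AK044253, read 6.87, 8.34, 7.16 and 7.44 on the Psgl1-/- arrays and 7.06, 7.38, 5.67 and 6.88 on the Psgl1+/+ arrays. It differed by 0.70 (95% interval -0.41 to 1.82), so the sign of Junb depended on the probe, and both intervals included 0. Jund, which unlike the others is present in resting cells, was among the steadier genes, at 12.19, 12.54, 13.20 and 12.19 on the Psgl1-/- arrays and 13.56, 12.36 and 13.36 on Psgl1+/+ replicates 1 to 3. Its spot on Psgl1+/+ replicate 4 was marked as an outlier and left out of the fit, which gave -0.56 with a 95% interval of -1.58 to 0.47. The difference was -0.92 without Psgl1+/+ replicate 2 and -0.33 without replicate 1.

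Atf3, a stress-induced factor that pairs with JUN and represses inflammatory genes in macrophages, took high and low values in both groups. It read 12.49, 6.20, 13.15 and 9.52 on Psgl1-/- replicates 5 to 8, against 7.73, 5.12, 10.34 and 12.94 on Psgl1+/+ replicates 1 to 4. The difference of 1.31 had a 95% interval of -3.47 to 6.09 and was 0.00 without Psgl1+/+ replicate 2 and 2.69 without Psgl1-/- replicate 6. Within slide row 1 it was -1.17 and within slide row 2 it was 3.79 (2 arrays against 2 in each, no test, a split added after seeing the data).

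Egr1, a zinc finger factor switched on through SRF, also spanned a wide range in each group. It read 10.08, 12.50, 10.01 and 5.86 on Psgl1-/- replicates 5 to 8, against 11.61, 9.01, 12.09 and 3.93 on Psgl1+/+ replicates 1 to 4, and was not well above background on the last of these. The lowest array of each group thus lay more than 3 log2 units below the next. The difference was 0.45 (95% interval -4.35 to 5.25), but -1.30 without Psgl1+/+ replicate 4. It was 2.71 within slide row 1 and -1.81 within slide row 2, in the same untested split added after seeing the data. In that split Jun (2.9 in row 1, -0.24 in row 2) and Jund (0.01 and -0.76) also changed sign. Fos (3.99 and 1.94), Nr4a2 (-3.26 and -0.9) and the remaining genes kept theirs. Fos and Egr1, which share inducers, lay on the same side of their means on 6 of 8 arrays. Psgl1+/+ replicate 3 was the highest of its group for both and Psgl1+/+ replicate 4 low for both, while Psgl1-/- replicate 8 held the highest Fos and the lowest Egr1 of its group.

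Ier2, an early response gene for a nuclear protein, was well above background on 4 arrays only, 2 in each group. It read 8.97, 4.75, 2.04 and 0.67 on Psgl1-/- replicates 5 to 8, against 2.03, 1.25, 12.65 and 6.39 on Psgl1+/+ replicates 1 to 4. On the 4 arrays well above background it ran from 4.75 to 12.65, a span of 7.90 log2 units, and the other 4 values give only an upper bound. The difference of -1.48 (95% interval -8.05 to 5.10) was 0.88 without Psgl1+/+ replicate 3. The other Ier2 probe, annotated to AK032692, was well above background on Psgl1+/+ replicate 2 alone and was not tested. The 2 probes therefore did not detect Ier2 on the same arrays.

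Nr4a2, which restrains NF-kB targets in microglia and macrophages, was low on every Psgl1-/- array. It read 5.42, 5.80, 6.15 and 5.09 on Psgl1-/- replicates 5 to 8, against 8.02, 7.54, 5.36 and 9.86 on Psgl1+/+ replicates 1 to 4. Psgl1+/+ replicate 3 lay within the Psgl1-/- range, and the other 3 Psgl1+/+ arrays lay above it. The means were 5.61 ± 0.46 in Psgl1-/- and 7.69 ± 1.85 in Psgl1+/+ (SD, n = 4 each), a difference of -2.08 (95% interval -4.10 to -0.06) that did not pass (limma adjusted p = 0.478). The difference was -1.36 without Psgl1+/+ replicate 4 and -1.28 with normexp. On all 8 arrays Fos and Nr4a2 lay on opposite sides of their own means, with high Fos and low Nr4a2 on the Psgl1-/- arrays and Psgl1+/+ replicate 3, a pattern seen after the values.

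Klf2, a zinc finger factor that keeps monocytes and T cells quiescent, was the steadiest of the genes and, after scaling, the 1 gene whose groups did not overlap. It read 13.52, 13.68, 13.54 and 13.27 on Psgl1-/- replicates 5 to 8, against 14.05, 13.92, 13.97 and 14.10 on Psgl1+/+ replicates 1 to 4. The difference was -0.51 (SE 0.21, 95% interval -1.01 to -0.01, limma adjusted p = 0.478), and groups without overlap and lower in Psgl1-/- were found in 10.5% of all tested genes. When tested genes were ranked by SD within groups and split into 10 bins of equal size, Klf2 fell in the steadiest bin, where that share was 49.9% and the median difference -0.44. Before scaling the groups overlapped, with Klf2 intensities of 12700 to 15200 on the Psgl1-/- arrays and 12300 to 15800 on the Psgl1+/+ arrays. The 75th percentile used for scaling was 832.2 to 956.6 on Psgl1-/- and 518.3 to 746.9 on Psgl1+/+. Unscaled intensities are therefore not directly comparable between arrays, and the part of the scaling in the separation was not tested. Whether the groups overlapped under other scalings was not examined. Other scalings moved the difference to -0.37 with the array median, -0.22 after quantile normalization and -0.15 after cyclic loess. The Klf2 probe is 49 bases long, and its last 26 bases are shown because they set it apart from the other 9 probes used, with the run CCCCACCCC in capitals where it occurs.
Klf2 probe, bases 24 to 49 (gene on chromosome 8): ataatttgCCCCACCCCCACCCCctg
That run was in the probes of 163 tested genes (0.384%), on the strand the files give. Their median difference was -0.47 and their median SD within groups 0.26, beside 0.76 for all tested genes. The run was chosen after the values were seen, and its part in the Klf2 values was not tested.

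**Figure D2:**
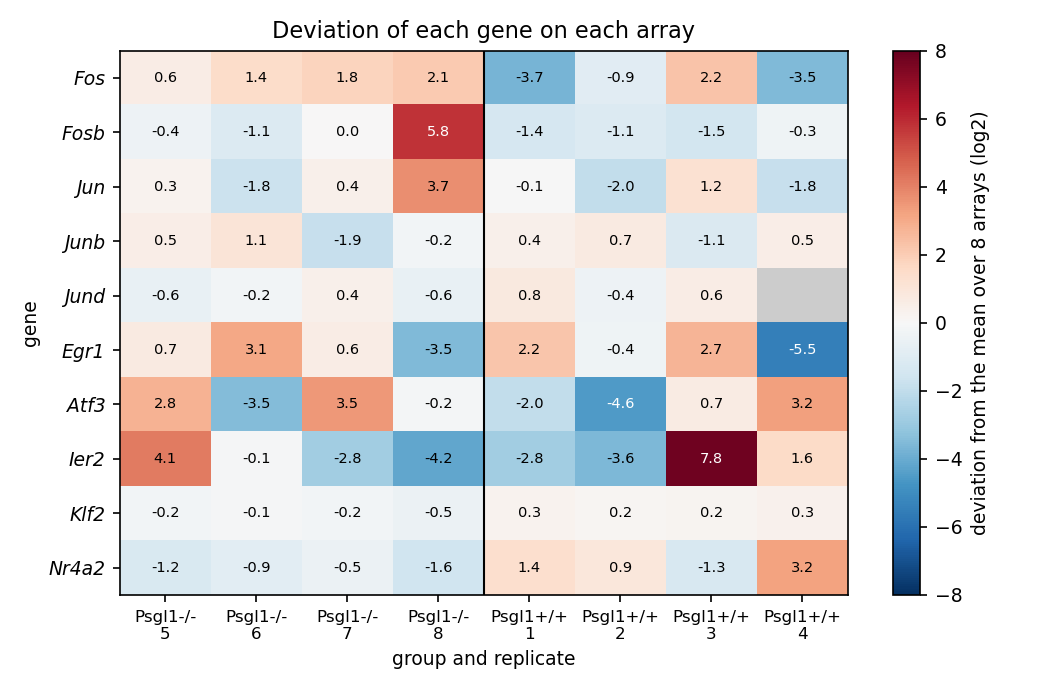
Deviation of each gene (rows) on each array (columns) from its mean over the 8 arrays, in log2 units. Red is above and blue below the mean, and grey is the Jund spot left out. Columns do not share a colour down the genes, and Psgl1-/- replicate 8 is high for Fosb and Jun and low for Egr1 and Ier2.

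No array was high for the genes as a set. The median deviation of the 10 genes from their own means lay between -0.34 and 0.40 on the Psgl1-/- arrays and between -0.66 and 0.62 on the Psgl1+/+ arrays. Psgl1+/+ replicate 3 had the highest median and was above the mean in 7 genes, with the highest Fos and Ier2 of all arrays and the lowest Fosb. Psgl1+/+ replicate 2 had the lowest median and was above the mean in 3 genes, with the lowest Jun and Atf3. Psgl1-/- replicate 8 was the highest array for 2 genes (Fosb and Jun) and the lowest for Klf2 and Nr4a2. Of the 5 arrays with Fos above its mean, Jun and Egr1 were each above theirs on 4, Atf3 on 3, Ier2 and Fosb each on 2 and Nr4a2 on 0.

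The genes varied more between samples of a group than most genes did, and so did the 6 related lists described below. The median SD within groups was 1.98 over the 10 genes and 1.11 to 1.41 in the related lists. It was 1 in the 12 myeloid genes, beside 0.76 for all tested genes. A wide spread was thus not particular to the 10 genes. The SD within groups was above the median of all tested genes (0.76) in 8 of the 10, and above the 75th percentile of spread (1.48) in 6, at 1.93 for Jun, 2.03 for Fos, 2.26 for Fosb, 3.27 for Atf3, 3.29 for Egr1 and 4.51 for Ier2. The values of Ier2 and Egr1 include 4 arrays and 1 array not well above background, so their SDs are uncertain. Atf3, well above background on all 8 arrays, exceeded 97.0% of tested genes in this spread, whereas Klf2 exceeded 0.438%. The range over the 8 arrays, for genes well above background on all of them, was 261-fold for Atf3 and 62.8-fold for Fos, against 1.78-fold for Klf2. Genes of large spread also had a different median difference. Over the 10 bins of spread it was -0.44 in the steadiest and 0.39 in the most variable, and it was 0.24 over the genes above the 75th percentile, which hold those 6. The 10-gene median of 0.11 lies between these values.

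**Figure D3:**
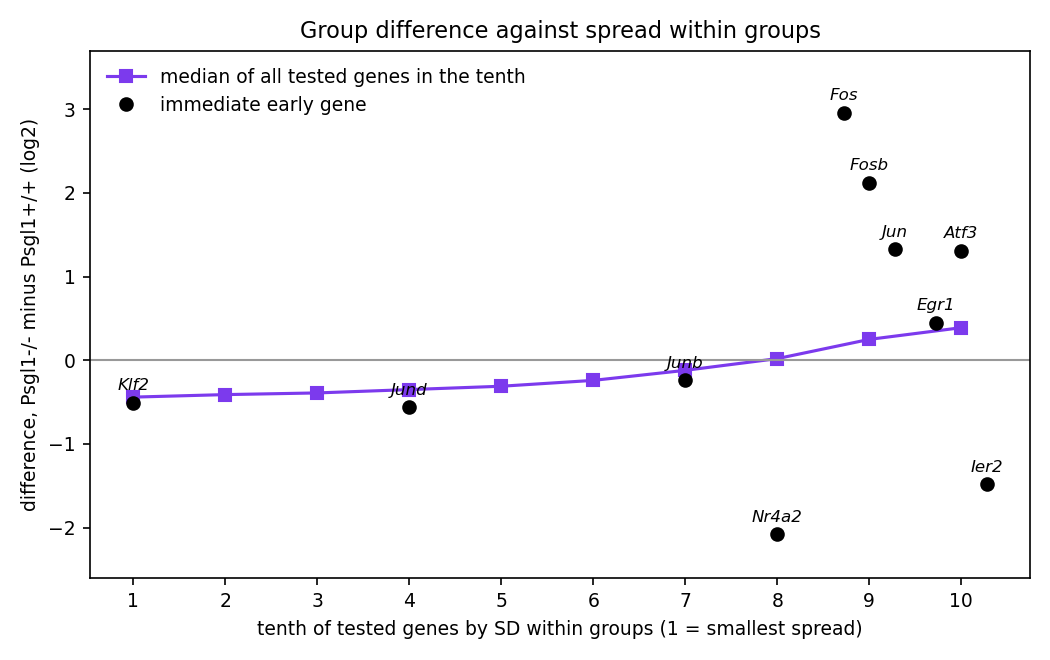
Difference between the groups (vertical, log2, Psgl1-/- minus Psgl1+/+) by bin of tested genes ranked by SD within groups (horizontal, 10 bins from steady to variable). Purple squares are medians of all genes in a bin, from -0.44 to 0.39, and black points are the 10 genes. Klf2, Jund, Junb and Egr1 lie near the purple line, Fos, Fosb, Jun and Atf3 above it and Nr4a2 and Ier2 below it.

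**Figure D4:**
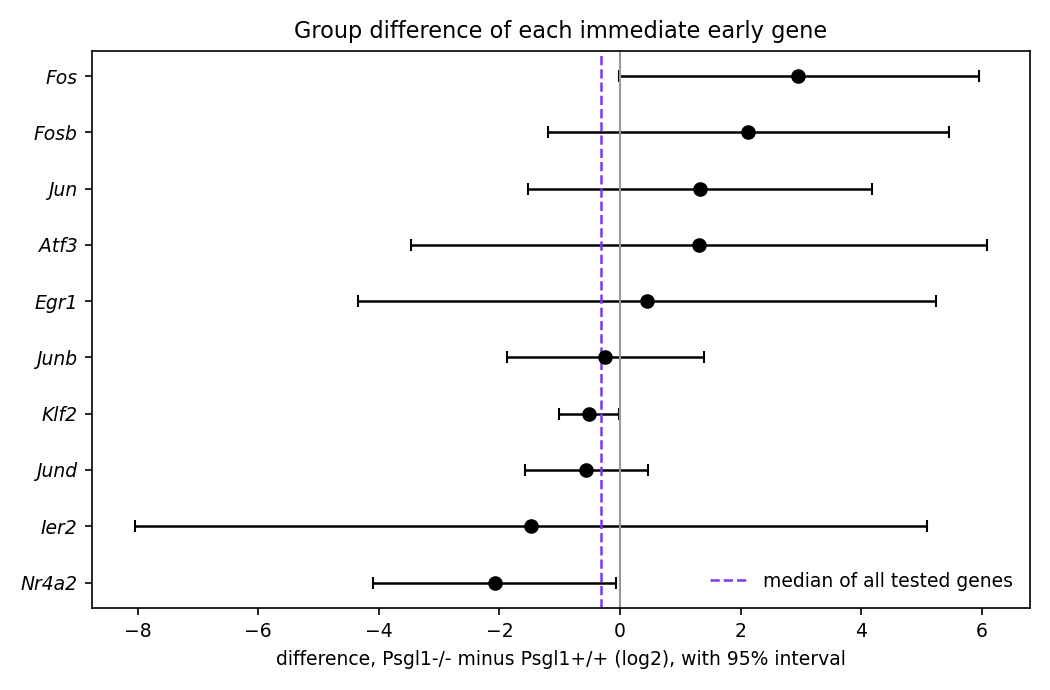
Difference of each gene (Psgl1-/- minus Psgl1+/+, log2) with its 95% interval from limma, n = 4 arrays per group. The dashed line is the median of all tested genes (-0.31). The intervals of 8 genes include 0, and those of Klf2 and Nr4a2 end at -0.01 and -0.06.

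The related genes of the same programme were followed in 6 lists, none of which held a gene past the threshold by limma (lowest adjusted p = 0.478). Of 22 tested other immediate early factors, 8 had a positive and 14 a negative difference, with a median of -0.09. At an unadjusted p under 0.05, 0 were above and 2 below. Over all tested genes those shares were 1.65% above and 8.61% below. Nr4a1, the paralog of Nr4a2 and also an orphan receptor of macrophages, pointed the other way from it, at 9.17, 8.71, 12.13 and 9.44 on Psgl1-/- replicates 5 to 8, against 5.67, 5.60, 10.45 and 8.01 on Psgl1+/+ replicates 1 to 4 (difference 2.43, SE 1.24, limma adjusted p = 0.489). The groups overlapped through Psgl1+/+ replicate 3, the array with the highest Fos. Crem, which encodes repressors at cAMP response elements, differed by -0.85, Csrnp1, an AXIN1-induced nuclear factor, by -0.73 and Fosl1, a further FOS paralog, by -0.75. The Csrnp1 difference was -0.1 after quantile normalization and -0.25 after cyclic loess. In those settings Crem gave -0.66 and -0.48, and Fosl1 -0.76 and -0.5. The other 2 Crem probes gave -0.43 and -0.68. After scaling the groups separated in 0 genes of this list above and 3 below, Crem and Csrnp1 among them. Those shares were 0.667% and 10.5% of all tested genes.

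Of 14 tested partners of AP-1 proteins, 7 were positive and 7 negative (median 0.10). Maf, a large bZIP factor of macrophages, had the largest difference among them, at 9.58, 8.98, 11.02 and 8.56 on the Psgl1-/- arrays, against 2.25, 7.66, 7.90 and 3.43 on the Psgl1+/+ arrays (4.23, SE 1.38, limma adjusted p = 0.478). The groups did not overlap, as in 0.667% of tested genes in this direction. Maf was well above background on 6 arrays, so the size is uncertain, and another probe gave 2.16. Ddit3, the stress factor CHOP, differed by -0.57 on the probe used and by 2.82 on its other probe, Batf2 by -1.10 and Batf by -0.55.

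The feedback regulators, which early signals induce and which then shut those signals off, held 33 tested genes, 20 positive and 13 negative (median 0.08). At an unadjusted p under 0.05, 3 were above and 1 below, beside 1.65% above and 8.61% below of all tested genes. Tnfaip3, the ubiquitin-editing brake on NF-kB known as A20, read 10.60, 9.89, 11.49 and 10.10 on Psgl1-/- replicates 5 to 8, against 7.95, 9.48, 6.98 and 8.02 on Psgl1+/+ replicates 1 to 4. All Psgl1-/- arrays lay above all Psgl1+/+ arrays, as in 0.667% of tested genes (difference 2.41, SE 0.59, limma adjusted p = 0.478). Gadd45g, a stress sensor upstream of p38 and JNK, differed by 2.94 (SE 0.76) and Zfp36l1, which promotes decay of AU-rich mRNA, by 1.72 (SE 0.47). In each of these, 1 array overlapped the other group. Socs1, the inhibitor of JAK kinases, differed by -1.66 (SE 0.48), and these 3 genes had the same adjusted p as Tnfaip3.

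Of 34 tested upstream kinases and factors, 14 were positive and 20 negative, with a median of -0.38 close to that of all genes. Mapk14, which encodes p38 alpha, differed by 2.13 and read 12.28 on Psgl1-/- replicate 7 but 9.42 to 9.62 on the other 3 Psgl1-/- arrays, and its other probe gave -0.94. Mapkapk3, a kinase activated by p38, differed by 3.24. Map2k7, a kinase upstream of JNK, differed by -0.62 and the factor Mef2a by -0.63 (limma adjusted p = 0.478 for all 4). The groups separated in 2 genes of this list above, Mapk14 and Mapkapk3, and in 3 below, Map2k7 and Mef2a among them. Those shares were 0.667% and 10.5% of all tested genes. The other 4 Map2k7 probes gave -1.32 to 1.10 and the other 2 Mef2a probes 0.45 and 1.6.

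Heat shock genes, which dissociation also induces, gave 9 positive and 5 negative differences among 14 tested (median 0.20, none at an unadjusted p under 0.05). Hspd1 differed by -1.26, Hsp90ab1 by 1.27, Hsph1 by -0.49 and Dnajb1 by 1.57. Cytokines and chemokines known to be raised in myeloid cells by handling ex vivo gave 9 positive and 7 negative among 16 (median 0.21, none at an unadjusted p under 0.05), with Ccl2 at 2.45, Ccl12 at -1.84, Ccl4 at -0.52 and Tnfsf9 at 1.21 (lowest limma adjusted p of both lists 0.488).

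**Figure D5:**
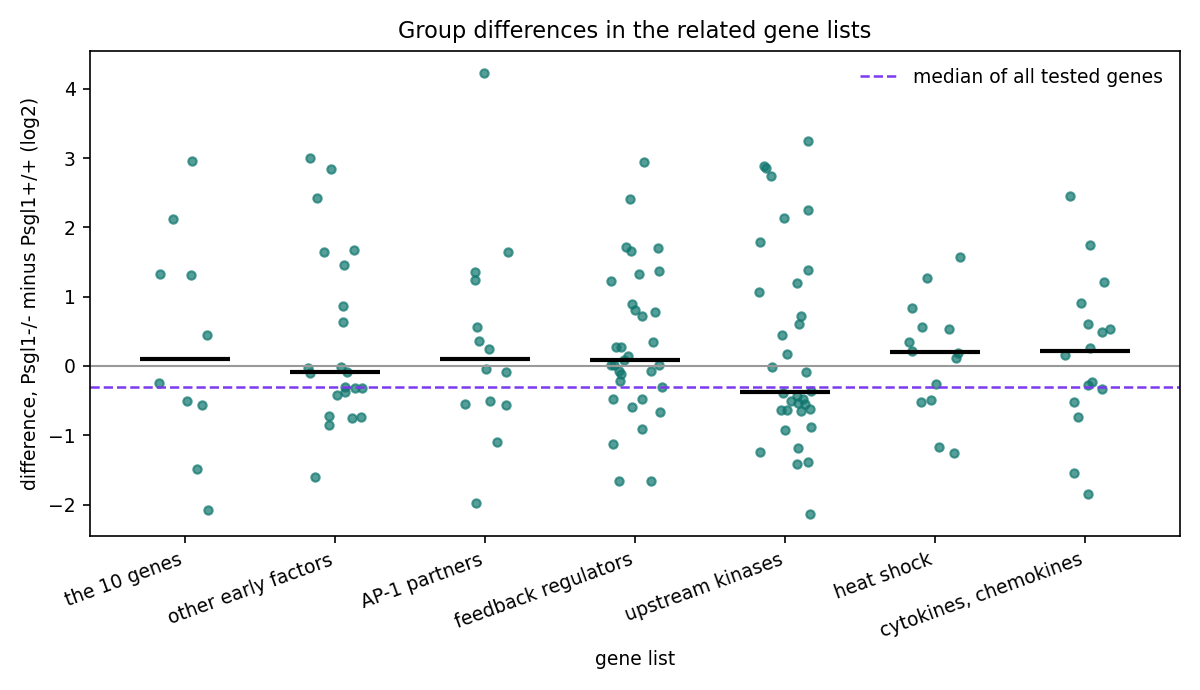
Difference of each tested gene (points, log2, Psgl1-/- minus Psgl1+/+) in the 10 genes and in 6 related lists, with list medians as black bars and the median of all tested genes (-0.31) dashed. Medians run from -0.38 for upstream kinases to 0.21 for cytokines and chemokines, and no gene passed the threshold.

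Markers of other cells were given beside these genes for their whole lists. The mean signal of 10 neutrophil genes was 8.53 to 9.92 on the Psgl1-/- arrays and 7.39 to 9.13 on the Psgl1+/+ arrays. Of the 10, 5 differences were positive and 5 negative (median 0.15). S100a9, the one with an unadjusted p under 0.05, a calcium-binding protein of neutrophils and monocytes, read 12.54, 11.62, 13.00 and 12.70 on the Psgl1-/- arrays, against 5.70, 9.03, 11.43 and 4.49 on the Psgl1+/+ arrays (difference 4.80, limma adjusted p = 0.478). It was high on every Psgl1-/- array and on Psgl1+/+ replicate 3. Its partner S100a8 did not follow it, at 8.17, 8.14, 10.40 and 10.13 on the Psgl1-/- arrays, against 6.26, 9.79, 11.38 and 6.98 on the Psgl1+/+ arrays (difference 0.61). The part of any such cells in the Fos values was not tested. The list means were 7.52 to 8.36 on Psgl1-/- and 8.38 to 8.70 on Psgl1+/+ for 9 T cell genes, 9.43 to 9.56 on Psgl1-/- and 9.56 to 10.08 on Psgl1+/+ for 6 B cell genes, and 8.11 to 9.37 on Psgl1-/- and 8.77 to 9.22 on Psgl1+/+ for 8 endothelial genes, in which Klf2 is also expressed. For 8 neuron genes, a cell type in which Fos, Egr1 and Nr4a2 are induced by activity, they were 10.67 to 11.16 on Psgl1-/- and 10.98 to 11.54 on Psgl1+/+. The T cell ranges did not overlap and the B cell ranges met at 9.56. Of the differences, 9 of 9 were negative for T cell genes (median -0.50) and 4 of 6 for B cell genes (median -0.40). The median over all tested genes was -0.31 and depended on the scaling. Gene by gene, the groups separated in 0 of the 9 T cell and 1 of the 6 B cell genes, against 11.1% of all tested genes. The microglia, astrocyte and oligodendrocyte lists and the 12 myeloid genes each overlapped between the groups, and 0 of all these marker genes passed the threshold.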

How the data were processed

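RNA of 8 samples of sorted cells was labelled with cyanine 3 and hybridised to 1 single-colour Agilent array each, all of them from 1 slide read in 1 scan, per the labels' protocols and the file headers. The deposited scanner files give spot intensity on a linear scale from Feature Extraction (version 11.5.1.1), with spatial and multiplicative detrending switched on within each array and no step between arrays, per the file headers. The authors' value table, whose making no source used here describes, holds intensities with identical sorted values in all 8 columns, and served as an alternative.

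Control spots (1439) and spots marked as outliers (25 to 149 per array) were left out, no spot was saturated, and log2 signals of a probe's spots were averaged. Of 60273 probes, 67.1% were named through RefSeq accessions or symbols (GRCm38.p6, used for names and for the promoter windows). The 75th percentile of each array was aligned to the mean over arrays on the log2 scale. The brightest probe stood for each gene, and genes where fewer than 4 of 8 arrays showed it well above background were dropped, which left 42432. A separate fit took each probe on its own (51380 probes, of which 11 belong to the 10 genes, 0 with an adjusted p under 0.05). Differences (Psgl1-/- minus Psgl1+/+) were fitted with limma 3.58.1 in R 4.3.3 (data.table version 1.17.8), two-sided, with Benjamini-Hochberg adjusted p-values over the whole table and a threshold of 0.05. The fit was run on simulated data with large shifts placed in genes of below-median spread. It therefore does not measure how well changes in the more variable genes would be found. Python 3.11.15, pandas 2.3.3 and matplotlib 3.10.9 served for promoters and plots. Precision is limited by having 4 arrays a group.

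The genes and lists were chosen with earlier results of these data known. The text names the 10 genes, from each of the 6 related lists the 4 tested genes with the smallest unadjusted p, and, chosen after their values were seen, S100a8, S100a9, Ly6g and the CD3 chains.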

Additional observations from a re-analysis of the deposited data

Results flagged for a closer look

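Among the 10 genes, 1 array stood far from the other 3 of its group by Dixon's criterion: Fosb on Psgl1-/- replicate 8 read 13.55, the other 3 Psgl1-/- arrays 6.71 to 7.80. Chance flags about 1 in 20 groups, and 10 of 105 groups examined were flagged (9.52%). In the related lists, Mapk14 read 12.28 on Psgl1-/- replicate 7 (others 9.42 to 9.62), Ccl12 read 8.98 on Psgl1-/- replicate 8 (others 5.70 to 5.92), and Ccl4 read 9.74 on Psgl1-/- replicate 8 (others 8.86 to 9.01) and 9.04 on Psgl1+/+ replicate 3 (others 9.86 to 9.88). In the marker lists, Cd4 of T cells read 11.94 on Psgl1-/- replicate 5 (others 11.33 to 11.44) and 13.08 on Psgl1+/+ replicate 4 (others 11.78 to 11.95). Gpr34 of microglia read 9.10 on Psgl1+/+ replicate 4 (others 8.53 to 8.59). Of the oligodendrocyte genes, Mag read 10.76 on Psgl1-/- replicate 5 (others 10.50 to 10.53) and Mog 13.19 on Psgl1-/- replicate 7 (others 7.29 to 7.66). Replicate 8 of the Psgl1-/- group was named for Fosb, Ccl12 and Ccl4, and no cause was tested.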

How the results depend on the processing

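In 19 other settings (18 chosen with the design and 1, without Psgl1-/- replicates 7 and 8, after seeing the data), 0 of the 10 genes, 0 of their probes (18 settings) and 0 genes of the related and marker lists passed by limma. Of the 10 genes, 0 to 3 had an unadjusted p under 0.05, beside 1773 to 4433 of all 42432 tested genes in the settings at these extremes. The count of 3 was of 7 tested with genes above background on all 8 arrays (4005 of 34977 genes) and of 10 with array weights (4131 of 42432). The median difference of the 10 genes ranged from -0.54 to 1.15 (without Psgl1+/+ replicate 3). It was 1.31 over the 7 of them that were above background on all 8 arrays. The count of called genes over the whole array was 1 and became 4 after cyclic loess, 7 with genes above background on all 8 arrays, 5 with the mean over all probes, 2 with slide row as a covariate, 0 to 10 when leaving out 1 array, and 0 without Psgl1-/- replicates 7 and 8, where 1773 genes had an unadjusted p under 0.05. Without Psgl1+/+ replicate 1 or Psgl1-/- replicate 7 the count was 0, with 3351 and 2691 genes at an unadjusted p under 0.05. The split of genes at an unadjusted p under 0.05, above and below in Psgl1-/-, was 702 and 3652, against 1249 and 801 after cyclic loess, 905 and 1883 after quantile normalization, 884 and 1785 with array median scaling, 834 and 1972 with normexp, and 905 and 1823 in the deposited value table.

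Signs turned for Junb (0.01 after cyclic loess, 0.23 with the mean over all probes, 0.34 without Psgl1-/- replicate 7, 0.67 without Psgl1-/- replicates 7 and 8), Egr1 (-1.30 without Psgl1+/+ replicate 4, -0.51 without Psgl1-/- replicate 6), Ier2 (0.88 without Psgl1+/+ replicate 3, 1.28 without Psgl1-/- replicates 7 and 8) and Jun (-0.06 without Psgl1-/- replicates 7 and 8). Over those that left out 1 array, Junb ranged from -0.66 to 0.34, Egr1 from -1.30 to 1.70 and Ier2 from -3.10 to 0.88. Among the other named genes, signs turned for Map2k7 (0.01 after quantile normalization, 0.00 with normexp, 0.01 in the value table), Hsph1 (0.01, 0.03 and 0.02 in that order), Ddit3 (0.00 in the value table, 1.13 with the mean over all probes), Mef2a (0.47 with the mean over all probes), Tnfsf9 (-0.08 without Psgl1-/- replicates 7 and 8) and Selplg (-1.0 to 0.03 when leaving out 1 array). The cause was not tested. Egr1, Ier2 and Jund have no value with genes above background on all 8 arrays, which they do not meet. No paired analysis was possible because the groups share no replicate number. The number of arrays and signal near background (Ier2 on 4 arrays, Egr1 on 1) limit these values.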
